A study of Mus musculus with 24 samples.

Results

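3T3-L1 is a mouse embryonic fibroblast line that turns into fat cells after hormonal induction, and its adipocytes at day 7 of differentiation were compared with its pre-adipocytes at day −2, both in DMSO. The 6 libraries were chosen by their sample titles, 3 of DMSO day 7 and 3 of DMSO day −2, out of 24 in the study. The study followed adipogenesis at days −2, 1, 3 and 7 in DMSO or ML-792, an inhibitor of the enzyme that starts SUMO conjugation, and asked which genes are transcribed at each step. At day −2 the cells grew in medium with bovine calf serum. The day 7 cells had received fetal bovine serum, dexamethasone, 3-isobutyl-1-methylxanthine and insulin until day 3, and serum with insulin after that. Both groups carried DMSO, the vehicle of ML-792, and both were labelled with 100 µM 4-thiouridine for 45 min before harvest. The medium and the serum differ between the groups along with the stage of differentiation, and these cannot be told apart. Replicates are named A, B and C. The study's methods call the 3 replicates of a condition biological, and the labels add nothing on whether a letter is a separate culture. The cultures were read in bulk, where fewer cells of a type and less RNA per cell cannot be told apart.

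Adipogenesis is driven by PPARG and the C/EBP factors, which switch on the genes for taking up fatty acids, building triglyceride and coating the lipid droplet, while the fibroblast leaves the cell cycle and gives up much of its matrix and actin cytoskeleton. White adipocytes are also known for a strong growth of the mitochondrial and lipogenic machinery and for secreting hormones such as adiponectin. The amount of an mRNA follows both its synthesis and its decay, and a short pulse of 4-thiouridine marks the RNA made within the pulse.

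QuantSeq reads the 3′ end of polyadenylated RNA, so each transcript gives about the same number of reads whatever its length. Every read counted on a RefSeq 3′UTR of the mouse genome build mm10 is called a total read here, and a read with at least 1 T-to-C conversion, the mark left by 4-thiouridine, a labelled read (SLAMseq). The 6 libraries held 17192037 to 22292366 total and 180072 to 820046 labelled reads. A gene was represented by 1 of its 3′UTR entries, and its reads were normalized to the mean effective library size. Values by library are given in the order A, B, C. Labelled reads were normalized by the total reads, so that a change of the whole labelled pool stays in the values. Where it mattered, they were also scaled to the size of the labelled pool alone, so that each gene is set against the labelled pool. Of all reads, 3.68%, 2.71% and 3.13% were labelled at day −2, and 1.08%, 0.926% and 1.08% at day 7, with means of 3.17% ± 0.485 and 1.03% ± 0.0869 (SD, n = 3). In some genes with labelled values below, *Suclg1*, *Ndufs6*, *Col3a1* and *Vcl* among them, the percent of reads labelled fell far less or not at all. Whether conversions from other sources than 4-thiouridine enter the labelled reads was not tested. Over all genes tested, the libraries of day 7 all lay above those of day −2 in 29.6% and all below in 30.9% in total reads, and in 4.41% and 56% in labelled reads. For the labelled share of a library the days did not overlap, and the two-sided exact permutation test gave p = 0.1, the smallest value that 3 libraries against 3 allow. Replicate B stood apart from A and C at both days. Of 9764 genes with a mean of at least 100 normalized reads, 479 at day −2 and 364 at day 7 lay more than 2-fold outside both other replicates in B, against 23 and 43 in A and 41 and 56 in C. Where B alone carried a wide spread, its value is given.

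The marker genes of both cell types went with the labels. All 9 adipocyte markers rose in total reads, and their sum went from between 1479 and 2412 normalized reads per library at day −2 to between 394800 and 475000 at day 7. Of 10 fibroblast markers 9 fell, and their sum went from between 303700 and 362800 to between 27260 and 40010. *Cd34*, the remaining one, had 7.36, 10.7 and 16.9 at day −2 and 2.26, 1.04 and 0 at day 7 and was not called. Of the markers of other cells 11 had no read. *Ptprc*, *Adgre1*, *Tyrobp* and *C1qa* of leukocytes, *Cdh5* and *Cldn5* of endothelium, *Myod1*, *Myog* and *Ckm* of skeletal muscle, *Epcam* of epithelium and *Acan* of cartilage had 0 reads in all 6 libraries. The epithelial keratins *Krt8* and *Krt18* had 0 reads in every library of day −2. At day 7 *Krt8* had 9.03, 9.39 and 10.3 and *Krt18* had 10.2, 35.5 and 33.1 normalized reads, at least 3.68-fold and at least 10.1-fold higher against a floor of 3 counts per library. The sum of 5 epithelial markers, most of it *Krt14*, went from between 0.8182 and 9.837 to between 247.1 and 346.3. The other members of these lists were not at 0. The 9 leukocyte markers summed to between 203.9 and 288.6 at day −2 and between 118.8 and 151.2 at day 7, and the 5 chondrocyte markers to between 5949 and 10910 and between 1252 and 3297. The muscle markers, most of whose sum is *Acta2*, went from between 31300 and 63460 to between 1250 and 1526, and the osteoblast markers from between 892.5 and 1064 to between 173.1 and 241.5. Against these sums *Des* and *Myh11* of muscle and *Alpl* of bone were higher at day 7. *Des* went from 22.9, 17.9 and 36.4 to 311, 502 and 266, *Myh11* from 4.09, 9.84 and 7.10 to 199.7, 151 and 142 and *Alpl* from 0, 2.68 and 0 to 112, 50.1 and 84.5 normalized reads. The part of such cells in the results was not tested.

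In total reads 5111 of 13331 tested genes (38.3%) were called at an adjusted p under 0.01 from edgeR's quasi-likelihood test, with 2525 higher (18.9%) and 2586 lower (19.4%) at day 7. In labelled reads 1933 of 6434 tested genes (30%) were called, and of these 128 were higher (1.99%) and 1805 lower (28.1%). The median log2 fold change over tested genes was -0.014 in total reads and -1.28 in labelled reads. Scaled by the labelled pool, labelled reads gave 755 calls (11.7%), 413 higher (6.42%) and 342 lower (5.32%), with a median of -0.038. The direction of the labelled calls as a whole therefore turned with the scaling, from 6.62% of calls higher to 54.7% higher. Both values are given for a number of genes and lists below. A single value in parentheses, and a size after "rose by" or "fell by", is a log2 fold change of total reads unless labelled reads are named. Without replicate A 2803 genes were called in total and 775 in labelled reads, without C 3427 and 1029, and without B 5470 and 1867.

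Of the 128 genes higher in labelled reads, 126 were also higher in total reads, which is 98.4% of the former and 4.99% of the latter. Of the 1805 lower in labelled reads, 1006 were lower in total reads, which is 55.7% and 38.9%. Only 32 genes went opposite ways, all of them higher in total and lower in labelled reads. The other 2 labelled genes that rose, *Mad2l2*, a subunit of translesion DNA polymerase, and *5730408K05Rik*, were not called in total reads. These numbers set 2 readings of the same libraries side by side and are not independent of each other.

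**Figure D1:**
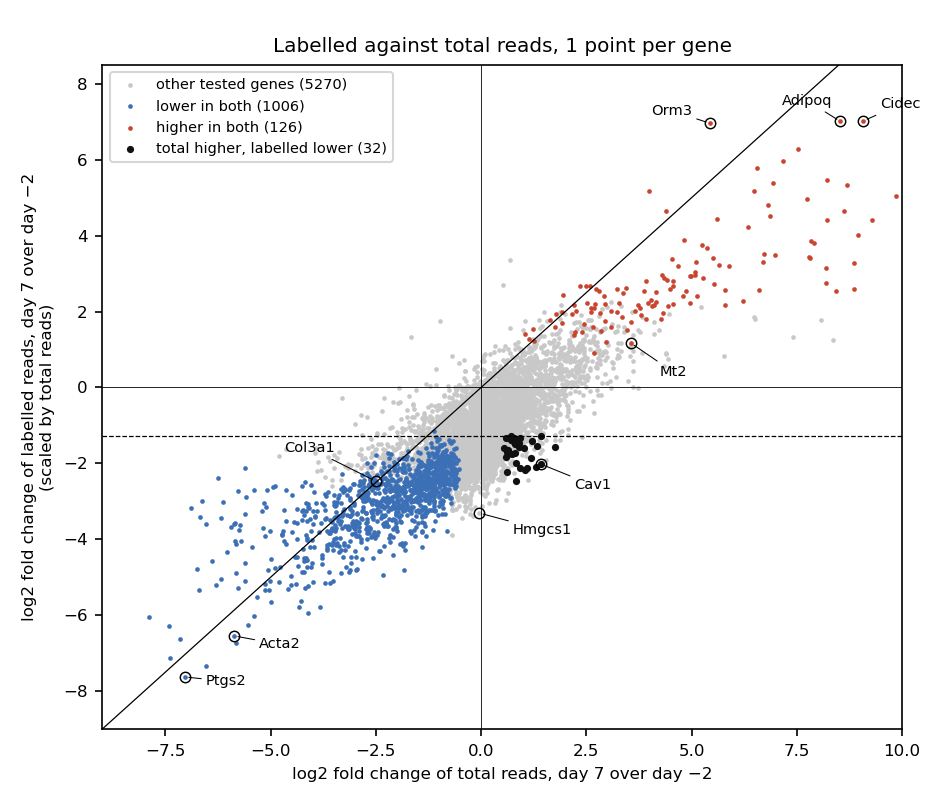
Each point is 1 of 6434 genes tested in both readings, with the log2 fold change of total reads on the x axis and of labelled reads, scaled by total reads, on the y axis; the solid line marks equal change and the dashed line the median labelled change of -1.28. Most of the cloud lies below the solid line, the 126 genes higher in both spread to the upper right with *Cidec* and *Adipoq* at the end, and the 32 genes with opposite calls, *Cav1* among them, sit at the lower right of the centre; genes with 0 reads at a day are drawn at their fitted value, which is no bound.

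Most transcription factors of adipogenesis rose in total reads. Of 24 tested, 16 rose and 2 fell in total reads (median log2 fold change 1.71), and of 20 tested in labelled reads 6 rose and 5 fell (median -0.33), or 7 rose and 0 fell when scaled by the labelled pool (median 0.95). Of all tested genes 1.99% rose and 28.1% fell in labelled reads. Without A the labelled calls of this list came to 4 and without C to 7. *Cebpa*, the C/EBP factor that keeps the adipocyte state (3′UTR entry of NM_001287523.1, chromosome 7, 35120499 to 35121928 in mm10, as for the positions below), had 352, 231 and 319 normalized total reads at day −2 and 8666, 5609 and 8999 at day 7 (log2 fold change 4.68, standard error 0.27, adjusted p = 2.00e-09, edgeR). In labelled reads *Cebpa* had 10.6, 1.79 and 10.7 at day −2 and 81.2, 75.1 and 105 at day 7, and the days did not overlap in either reading. *Pparg*, the master regulator of fat cells, had 542, 678 and 509 normalized total reads at day −2 and 10301, 1743 and 10926 at day 7, with replicate B far below A and C at day 7 but above all of day −2. Its labelled reads were 26.2, 35.8 and 15.1 at day −2 and 196, 28.2 and 144 at day 7, so in B the labelled value of day 7 lay inside the range of day −2. *Zbtb16*, a zinc finger factor induced by glucocorticoids, went from 218, 136 and 213 to 8073, 6488 and 7359 total and from 14.7, 2.68 and 11.5 to 143, 144 and 182 labelled reads.

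The early C/EBP factors differed from this. *Cebpb* and *Cebpd*, which act in the first days of induction, had overlapping total reads (1586, 2448 and 1451 at day −2 and 2138, 1978 and 2145 at day 7 for *Cebpb*, 2427, 2856 and 2492 at day −2 and 2627, 2411 and 2666 at day 7 for *Cebpd*), whereas their labelled reads fell, from 249, 260.2 and 219 to 68.8, 84.5 and 74.2 for *Cebpb* (log2 fold change -1.65, standard error 0.37, adjusted p = 2.41e-04, edgeR) and from 371, 417 and 402 to 158, 156 and 155 for *Cebpd* (log2 fold change -1.33, standard error 0.33, adjusted p = 8.65e-04, edgeR). Scaled by the labelled pool neither was called (log2 fold change -0.27 and 0.054). *Klf9*, another glucocorticoid target, rose in total reads (1.70) and rose against the labelled pool (1.16), but not in labelled reads scaled by total reads (-0.30, adjusted p = 0.384, edgeR). *Rxra*, the partner of PPARG on DNA, rose in total reads only (1.38). The 2 that fell in total reads were *Nr3c1*, the glucocorticoid receptor (-0.95), and *Ppargc1a*, the coactivator of mitochondrial genes, which had 579, 509 and 448 normalized total reads at day −2 and 131, 135 and 154 at day 7 (log2 fold change -1.86, standard error 0.27, adjusted p = 4.32e-05, edgeR).

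Of 21 tested inhibitors of adipogenesis 15 fell in total reads and 3 rose (median -1.79). In labelled reads 16 of 18 fell and 0 rose, and against the labelled pool 9 fell and 1 rose. *Dlk1* (Pref-1), the surface protein that marks pre-adipocytes, had 66948, 35274 and 64491 normalized total reads at day −2 and 2948, 2883 and 3496 at day 7 (log2 fold change -4.16, standard error 0.26, adjusted p = 5.29e-09, edgeR), with a mean labelled share of 0.783% at day −2 and 0.576% at day 7. *Hes1*, a Notch target, fell from 3921, 4530.5 and 3478 to 1483, 1056 and 1094 total reads and from 1117, 1001 and 964 to 150.1, 122 and 138 labelled reads. *Id2* and *Id3*, which block helix-loop-helix factors, fell (log2 fold changes of -3.14 and -1.39 in total and -4.86 and -2.60 in labelled reads). *Foxo1*, a forkhead factor that insulin keeps out of the nucleus, was 1 of the 3 that rose (2.56), beside *Insig1* (0.83) and *Irf4*, which had 2 counts in all at day −2 and a pooled ratio of day 7 over day −2 of 56.1 (15.1 to 470.2), 95% counting interval in parentheses.

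The genes with the highest fold change in total reads were mostly known adipocyte genes, namely *Thrsp*, *Mrap*, *Cidec*, *Retn*, *Slc2a4*, *Ghrh*, *Adig* and *Pnpla3*. *Cidec*, which fuses lipid droplets (XM_006505531.3, chromosome 6, 113424634 to 113425561), had 120.3, 187 and 97.7 normalized total reads at day −2 and 65923, 95726 and 60521 at day 7 (log2 fold change 9.08, standard error 0.32, adjusted p = 2.54e-11, edgeR), and its labelled reads went from 0, 3.58 and 0 to 372, 484 and 358. *Mrap*, the accessory protein of the melanocortin receptor, had 9.82, 23.3 and 4.44 normalized total reads at day −2 and 6949.9, 13442 and 6603 at day 7. *Slc2a4* (GLUT4), the insulin-regulated glucose transporter, had 4.09, 6.26 and 3.55 normalized total reads at day −2 and 3211, 3249 and 2790.3 at day 7, and in labelled reads it had 0 in all 3 libraries of day −2 and was at least 3.20-fold higher. No library of day 7 came near those of day −2 in any of these. *Ghrh*, the growth hormone-releasing hormone of the hypothalamus, was under the floor of 3 counts in every library of day −2, with 1.64, 1.79 and 0.888, and had 1333, 1519.6 and 1928 at day 7. *Adig* (adipogenin) went from 6.55, 12.5 and 7.99 to 4139, 6956 and 4193, and *Pnpla3* (adiponutrin), a lipase-like protein of the lipid droplet, from 8.18, 12.5 and 3.55 to 4316, 5730.2 and 3956.

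**Figure D2:**
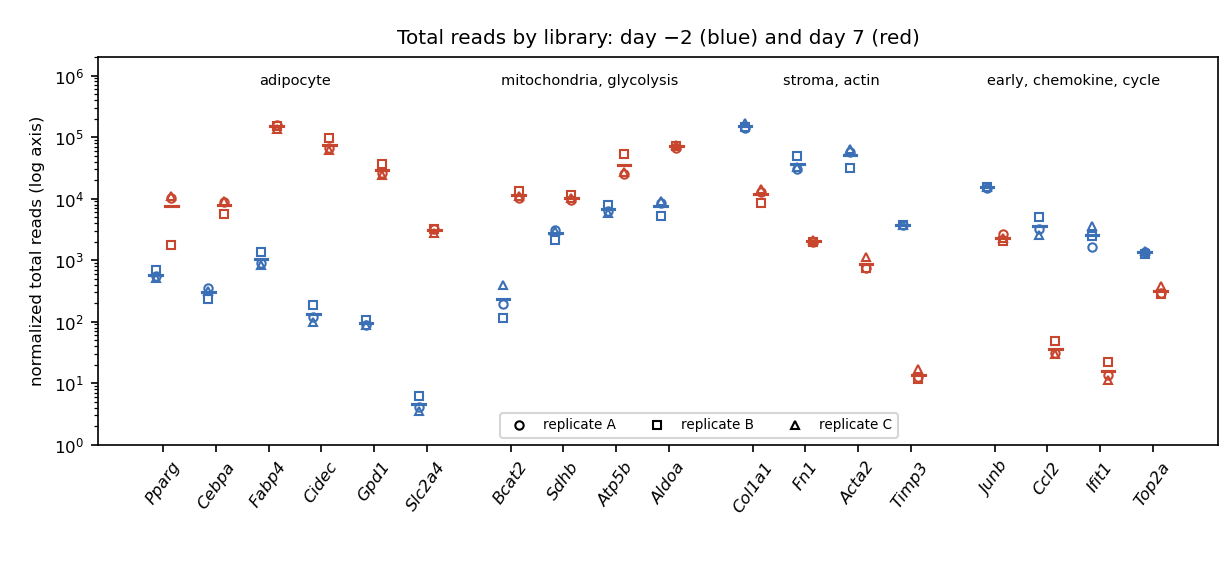
Normalized total reads of 18 genes (log axis) in each of the 6 libraries, day −2 in blue and day 7 in red, with the replicate given by the symbol and the mean of 3 libraries by a bar. Adipocyte, mitochondrial and glycolytic genes stand higher at day 7 and matrix, actin, early response, chemokine and cycle genes lower, and the days do not overlap for any of them; replicate B of *Pparg* lies at 1743 at day 7, far below A and C.

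Lipid droplet genes and the enzymes of triglyceride synthesis rose together. Of 14 tested lipid droplet genes 9 rose and 1 fell (median 2.05), and of 17 enzymes of triglyceride synthesis and glyceroneogenesis 14 rose and 0 fell (median 2.38). *Plin1*, the perilipin that guards the droplet against lipases, had 27.8, 27.7 and 12.4 normalized total reads at day −2 and 6319, 5189.9 and 6246 at day 7. *Plin4* and *Plin2*, which coat smaller droplets, rose by 3.65 and 2.41 on the log2 scale, while *Plin3*, the perilipin found in most cells, fell from 3829.8, 3287 and 4353 to 2279, 2288 and 2702 (log2 fold change -0.66, standard error 0.18, adjusted p = 0.00874, edgeR), a call that was lost without A (adjusted p = 0.145) and without C (0.0439). *Gpd1*, which makes glycerol 3-phosphate, had 88.4, 106 and 87.9 normalized total reads at day −2 and 25611, 36235 and 24528 at day 7 (log2 fold change 8.23, standard error 0.31, adjusted p = 3.04e-11, edgeR), and its labelled reads came to a pooled ratio of 343 (61.00 to 13588) against 1 count at day −2. *Dgat2* and *Dgat1*, the acyltransferases of the last step, went from 57.3, 84.96 and 44.4 to 18895, 18955 and 18955 and from 529, 459.7 and 587 to 10742, 10131 and 9749.5. The phosphatidate phosphatase gene *Lpin1* rose by 4.56 in total and by 2.19 in labelled reads. Only *Agpat4* of this list fell in labelled reads (-2.48), and it did not against the labelled pool (-1.21, adjusted p = 0.182, edgeR).

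Of 22 genes of de novo lipogenesis 15 rose and 1 fell in total reads (median 1.81), and in labelled reads 5 of 17 rose and 2 fell, or 8 rose and 1 fell against the labelled pool. *Scd1*, the stearoyl-CoA desaturase, had 1154, 1517 and 945 normalized total reads at day −2 and 105470, 130750 and 85982 at day 7 (log2 fold change 6.48, standard error 0.28, adjusted p = 1.51e-10, edgeR) and 19.6, 10.7 and 13.3 normalized labelled reads at day −2 and 574, 693 and 527 at day 7. *Fasn*, fatty acid synthase, rose in total reads from 3838, 2574 and 4311 to 33362, 35870 and 30000, but its labelled reads overlapped, 160.4, 44.7 and 142 at day −2 and 167, 103 and 151 at day 7 (log2 fold change 0.27, standard error 0.44, adjusted p = 0.601, edgeR), and rose only against the labelled pool (1.74). The elongases went apart. *Elovl6* fell from 1078, 1778 and 821 to 137, 136 and 124 total reads (log2 fold change -3.19, standard error 0.31, adjusted p = 5.49e-07, edgeR), *Elovl5* was not called (0.35, adjusted p = 0.0700, edgeR) though its labelled reads fell from 232, 131 and 167 to 19.2, 17.7 and 26.3, and *Elovl3* rose from 6.55, 7.15 and 4.44 to 587, 571 and 674.

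For the uptake of fatty acids, *Lpl*, the lipase that frees them from lipoproteins, had 20891, 21342 and 20732 normalized total reads at day −2 and 331420, 339740 and 303510 at day 7 (log2 fold change 3.95, standard error 0.18, adjusted p = 1.93e-10, edgeR) and 456, 304 and 398 normalized labelled reads at day −2 and 1747, 1756 and 1913 at day 7. *Fabp4*, the fatty acid binding protein of adipocytes, went from 903, 1350.4 and 816 to 156690, 152300 and 136310 total reads, and *Cd36*, the fatty acid transporter, from 24.5, 33.1 and 31.1 to 6530.1, 7632 and 7522. *Acsl1*, which activates long-chain fatty acids, rose by 6.86 in total and 4.51 in labelled reads. The lipoprotein receptor *Lrp1* fell from 5078, 6154 and 5298 to 1167, 937 and 1206 (log2 fold change -2.32, standard error 0.23, adjusted p = 6.20e-07, edgeR). In the whole list of 21, 12 rose and 3 fell in total reads (median 1.61).

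The lipolytic enzymes rose as well. Of 19 lipolysis genes 14 rose and 2 fell in total reads (median 4.64), and of 12 in labelled reads 6 rose and 2 fell (median 1.88), with 4 called without A and 4 without C. *Pnpla2* (ATGL), *Lipe* (hormone-sensitive lipase) and *Abhd5*, the activator of ATGL, had log2 fold changes of 6.33, 6.93 and 2.56 in total reads, with 577, 480.2 and 694 normalized total reads at day −2 and 48062, 47064 and 46102 at day 7 for *Pnpla2*. *G0s2*, an inhibitor of ATGL, rose too, from 20.5, 39.3 and 14.2 to 5533, 3205 and 5923 total and from 2.45, 0 and 0.888 to 290, 171 and 260.4 labelled reads, and B was the lowest day 7 library in both. The 2 that fell were *Gnas*, the stimulatory G protein subunit (41747, 54055 and 39373 at day −2 and 25184, 15583 and 24535 at day 7), and *Prkacb*, a catalytic subunit of protein kinase A (-0.90), while its paralog *Prkaca* rose (1.43).

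Among 25 known PPARG target genes 23 rose and 0 fell in total reads (median 5.77), 12 of 19 rose and 0 fell in labelled reads (median 3.28), and 17 of 19 rose against the labelled pool. No other list among the 39 had a higher median in total reads. These targets were listed as known PPARG targets and overlap with the lists above.

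Of the secreted products, 12 of 20 tested adipokines rose and 4 fell in total reads. *Adipoq* (adiponectin) and *Cfd* (adipsin) went from 245, 404 and 220.2 to 115620, 104480 and 104180 and from 108, 157 and 72.8 to 38746, 60575 and 36748 total reads. *Retn* (resistin) had 24.5, 76.02 and 29.3 normalized total reads at day −2 and 21849, 22906 and 21774 at day 7, and its labelled reads, 27.1, 36.5 and 26.3 at day 7 against 0 in all 3 libraries of day −2, were at least 11.5-fold higher. *Lep* (leptin) had 1 count at day −2 and 24.8, 21.9 and 52.5 normalized reads at day 7. *Agt* (angiotensinogen) rose in both readings. Among those that fell, *Cst3* (cystatin C) had 19880, 8094 and 20113 normalized total reads at day −2 and 4596, 4561 and 5038 at day 7, and *Igf1* and *Metrnl* fell too (log2 fold changes of -1.97 and -1.14).

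Acute phase genes rose, 13 of 17 tested (median 3.38), with 1 that fell. *C3*, the central complement component, had 356, 359.5 and 409 normalized total reads at day −2 and 15809, 16204 and 14238 at day 7 (log2 fold change 5.35, standard error 0.20, adjusted p = 3.04e-11, edgeR), and its labelled reads rose by 3.67. *Lcn2* (lipocalin 2) went from 32.7, 37.6 and 39.96 to 3210.3, 5173 and 3747. *Hp* (haptoglobin) had 73.3, 73.01 and 84.5 labelled reads at day 7 and 0 in every library of day −2, at least 29.6-fold higher. *Serpina3g*, a serine protease inhibitor, fell from 125, 108 and 121 to 4.51, 9.39 and 9.14.

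Of 26 genes of insulin signaling and glucose transport 9 rose and 4 fell in total reads (median 0.55), where 18.9% and 19.4% of all tested genes did. In labelled reads 0 of 20 rose and 7 fell (median -0.57), where 1.99% and 28.1% of all tested genes did. Against the labelled pool this turned to 3 that rose and 1 that fell (median 0.70). Without A 3 labelled calls were left and without C 4. *Ehd2*, a membrane ATPase of caveolae, rose from 2137, 2723 and 2381 to 8608, 8640.1 and 8237. *Irs1*, the insulin receptor substrate, fell from 1704, 1079 and 1846 to 782, 384 and 657 (log2 fold change -1.34, standard error 0.28, adjusted p = 9.18e-04, edgeR), and fell in labelled reads under both scalings (-2.96 and -1.55). The adaptors *Grb14* and *Grb10*, which damp the insulin receptor, fell too (-3.12 and -1.76). *Akt1* was not called, with a wide spread in which B was lowest at both days (7971, 3591 and 10739 at day −2 and 4972, 2321 and 4962 at day 7).

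Several genes that glucocorticoids induce were higher at day 7, after the withdrawal of dexamethasone at day 3. *Fkbp5*, the cochaperone of the glucocorticoid receptor, had 900, 1109.8 and 995 normalized total reads at day −2 and 21141, 21812 and 21471 at day 7 (log2 fold change 4.42, standard error 0.20, adjusted p = 1.93e-10, edgeR) and 30.3, 10.7 and 8.88 normalized labelled reads at day −2 and 160.2, 81.4 and 152 at day 7. *Tsc22d3* (GILZ) rose from 1033, 886 and 1135 to 5053, 5184 and 5970.1 total and from 36.00, 38.5 and 43.5 to 83.5, 118 and 136 labelled reads. Both were among the 3 of 18 genes of their list that rose in labelled reads, where 5 fell (median -1.27). Over all tested genes 1.99% rose and 28.1% fell in labelled reads, with a median of -1.28. The list was thus near all genes in its labelled median and falls, but a larger share of it rose. Against the labelled pool 5 of the list rose and 1 fell (median 0.15). Over 22 glucocorticoid and clock genes 8 rose and 2 fell in total reads, where 18.9% and 19.4% of all tested genes did. Without A 6 of the list were called in total reads, and without A or C 3 were called in labelled reads. The 2 that fell were *Nr3c1* and the clock repressor *Bhlhe41* (-2.16).

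Genes of oxidative phosphorylation rose in total reads. Of 76 tested subunits of oxidative phosphorylation 67 rose and 0 fell in total reads, with a median log2 fold change of 1.68. In labelled reads 3 of 58 rose and 0 fell (median 0.77), or 1 rose without C, where 1.99% of all genes rose, and against the labelled pool 40 rose and 0 fell (median 2.04). *Atp5g3*, a subunit of the ATP synthase ring, had 10099, 9028 and 8987 normalized total reads at day −2 and 40969, 53848 and 37869 at day 7 (log2 fold change 2.24, standard error 0.18, adjusted p = 7.56e-08, edgeR) and 202, 106 and 143 normalized labelled reads at day −2 and 313, 302 and 259 at day 7. Its labelled reads were higher in every library of day 7, but its call did not pass (0.95, adjusted p = 0.0164, edgeR). *Cox6a1* of cytochrome c oxidase had 6704, 4105 and 7662 normalized total reads at day −2 and 26307, 34586 and 33029 at day 7. *Atp5b*, the catalytic subunit of ATP synthase, had 6214, 7939 and 5897 normalized total reads at day −2 and 25209, 53169 and 27021 at day 7, with replicate B about 2-fold above A and C at day 7. *Ndufs6* of complex I rose in both readings, from 1168, 795 and 1305 to 3143, 4598 and 3232 total and from 148, 106 and 184 to 422, 462 and 437 labelled reads (log2 fold change 1.58, standard error 0.32, adjusted p = 8.59e-05, edgeR).

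The tricarboxylic acid cycle, with 23 of 29 genes higher and 1 lower (median 2.05), and fatty acid oxidation, with 19 of 23 higher and 1 lower (median 2.01), moved in the same direction in total reads. In labelled reads 3 of 27 genes of the cycle rose and 1 fell (median 0.81), and 3 of 18 of fatty acid oxidation rose and 2 fell (median 0.76), or 14 and 7 rose and 0 and 1 fell against the labelled pool. Without A 2 and 1 labelled calls were left, without C 2 and 1, and without B 2 of fatty acid oxidation. *Mdh2*, *Sdha* and *Sdhb* rose by 2.11, 2.04 and 1.90 on the log2 scale in total reads. *Suclg1*, a subunit of succinyl-CoA ligase, rose from 1538, 1961 and 1382 to 7265, 12070 and 7940.3 total and from 201, 135 and 163 to 774, 1691 and 726 labelled reads (log2 fold change 2.66, standard error 0.33, adjusted p = 3.73e-09, edgeR). On average 10.6% of its reads were labelled at day −2 and 11.3% at day 7. The gene that fell in this cycle list was *Pdp1*, the phosphatase that switches on pyruvate dehydrogenase (609, 727 and 598 at day −2 and 153, 177 and 193 at day 7). In fatty acid oxidation it was *Cpt1a*, the liver form of the carnitine transferase that admits fatty acids to the mitochondrion, which had 1482, 1649 and 1451 normalized total reads at day −2 and 206, 222 and 195 at day 7 (log2 fold change -2.86, standard error 0.17, adjusted p = 3.53e-09, edgeR), while *Hadha*, *Hadh* and *Crat* rose by 1.94, 2.19 and 3.40. *Acot2*, a mitochondrial thioesterase, rose in total reads (0.89) and fell in labelled reads (-1.57), though not against the labelled pool (-0.22).

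Branched-chain amino acid catabolism changed in nearly all members in total reads, 24 of 26 higher and 1 lower (median 2.15). In labelled reads 3 of 16 rose and 0 fell (median 0.43), or 1 without A, and 7 rose against the labelled pool. The 2 aminotransferases of its first step went opposite ways. *Bcat2*, the mitochondrial enzyme (XM_017321955.1, chromosome 7, 45589345 to 45589710), had 194, 114 and 389 normalized total reads at day −2 and 10298, 13135 and 10820 at day 7 (log2 fold change 5.61, standard error 0.50, adjusted p = 2.60e-07, edgeR), and its labelled reads rose from 0.818, 0 and 5.33 to 51.9, 119.9 and 82.2. *Bcat1*, the cytosolic enzyme (XM_011241566.2, chromosome 6, 144993835 to 145000262), had 772, 1219.8 and 657 normalized total reads at day −2 and 59.8, 78.2 and 57.1 at day 7 (log2 fold change -3.72, standard error 0.31, adjusted p = 9.04e-08, edgeR). The days did not overlap for either gene. *Hibadh* and *Hsd17b10*, of the later steps, rose by 2.86 and 2.09 on the log2 scale.

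Of 31 genes in the peroxisome list 20 rose and 0 fell in total reads (median 1.78). In labelled reads 3 of 18 rose and 1 fell (median 0.55), with 2 called without A. The list also holds *Pmp22*, a gene of peripheral myelin and not of the peroxisome. *Pex11a*, which divides peroxisomes, had 382, 471 and 385 normalized total reads at day −2 and 7019, 6017 and 7682 at day 7 (log2 fold change 4.06, standard error 0.18, adjusted p = 2.27e-10, edgeR) and rose in labelled reads (2.14). Glycolysis had 11 of 23 genes higher and 1 lower in total reads (median 1.46) and 2 of 14 higher and 0 lower in labelled reads (median 0.30). *Aldoa* had 8377, 5296 and 9131 normalized total reads at day −2 and 67481, 71453 and 74694 at day 7 (log2 fold change 3.23, standard error 0.25, adjusted p = 4.16e-08, edgeR) and 94.1, 31.3 and 96.8 normalized labelled reads at day −2 and 290, 254 and 361 at day 7, and *Tpi1*, *Ldha* and *Gpi1* rose by 2.35, 2.58 and 1.84. *Pkm*, pyruvate kinase, stayed above day −2 in every library, 6561, 2809.9 and 7475 at day −2 and 14412, 11449 and 15016 at day 7, with B low at day −2, and it was not called (adjusted p = 0.0152, edgeR). The muscle enolase *Eno3* fell (-1.22).

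Of 8 tested markers of brown and beige fat 4 rose and 1, *Ppargc1a*, fell. *Cidea*, *Elovl3*, *Cox8b* and *Cox7a1* rose, with 4.09, 1.79 and 1.78 normalized total reads at day −2 and 741, 961 and 870.3 at day 7 for *Cidea* and a pooled ratio of 849 (290.2 to 4123) for *Cox8b*, which had 3 counts at day −2. *Ucp1*, the uncoupling protein that defines brown fat, had 0, 0 and 0.888 at day −2 and 0, 0 and 1.14 at day 7, under the floor at both days, and *Zic1* had 0 reads in all 6 libraries. *Ebf2*, a factor of brown fat precursors, overlapped between the days (484, 256 and 351 at day −2 and 405, 336 and 391 at day 7).

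Antioxidant genes rose in 15 of 32 cases in total reads and fell in 4 (median 0.87), or 11 were called without A. In labelled reads 4 of 27 rose and 5 fell (median -0.016), where 1.99% and 28.1% of all tested genes did. Without A 3 of the list were called and without C 5, and against the labelled pool 9 rose and 0 fell (median 1.28). The metallothionein gene *Mt2*, whose product binds zinc and copper, had 9977, 7740.2 and 9360.5 normalized total reads at day −2 and 105240, 102250 and 109820 at day 7 (log2 fold change 3.55, standard error 0.18, adjusted p = 4.73e-10, edgeR) and 715, 385 and 701 normalized labelled reads at day −2 and 1397, 1144 and 1529 at day 7. *Mt1* rose in total reads (2.76), and in labelled reads it overlapped between the days (1582, 809 and 1873 at day −2 and 1865, 2153 and 2111 at day 7) and rose against the labelled pool only (1.99). *Sod1*, the cytosolic superoxide dismutase, went from 6614, 6169 and 6819.6 to 32207, 51904 and 35079 total and 27.00, 29.5 and 41.7 to 124, 161 and 149.6 labelled reads. The extracellular form *Sod3* fell (-1.12), as did *Gpx8*, *Gstm2* and *Nqo1* (-1.84, -0.95 and -0.99).

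**Figure D3:**
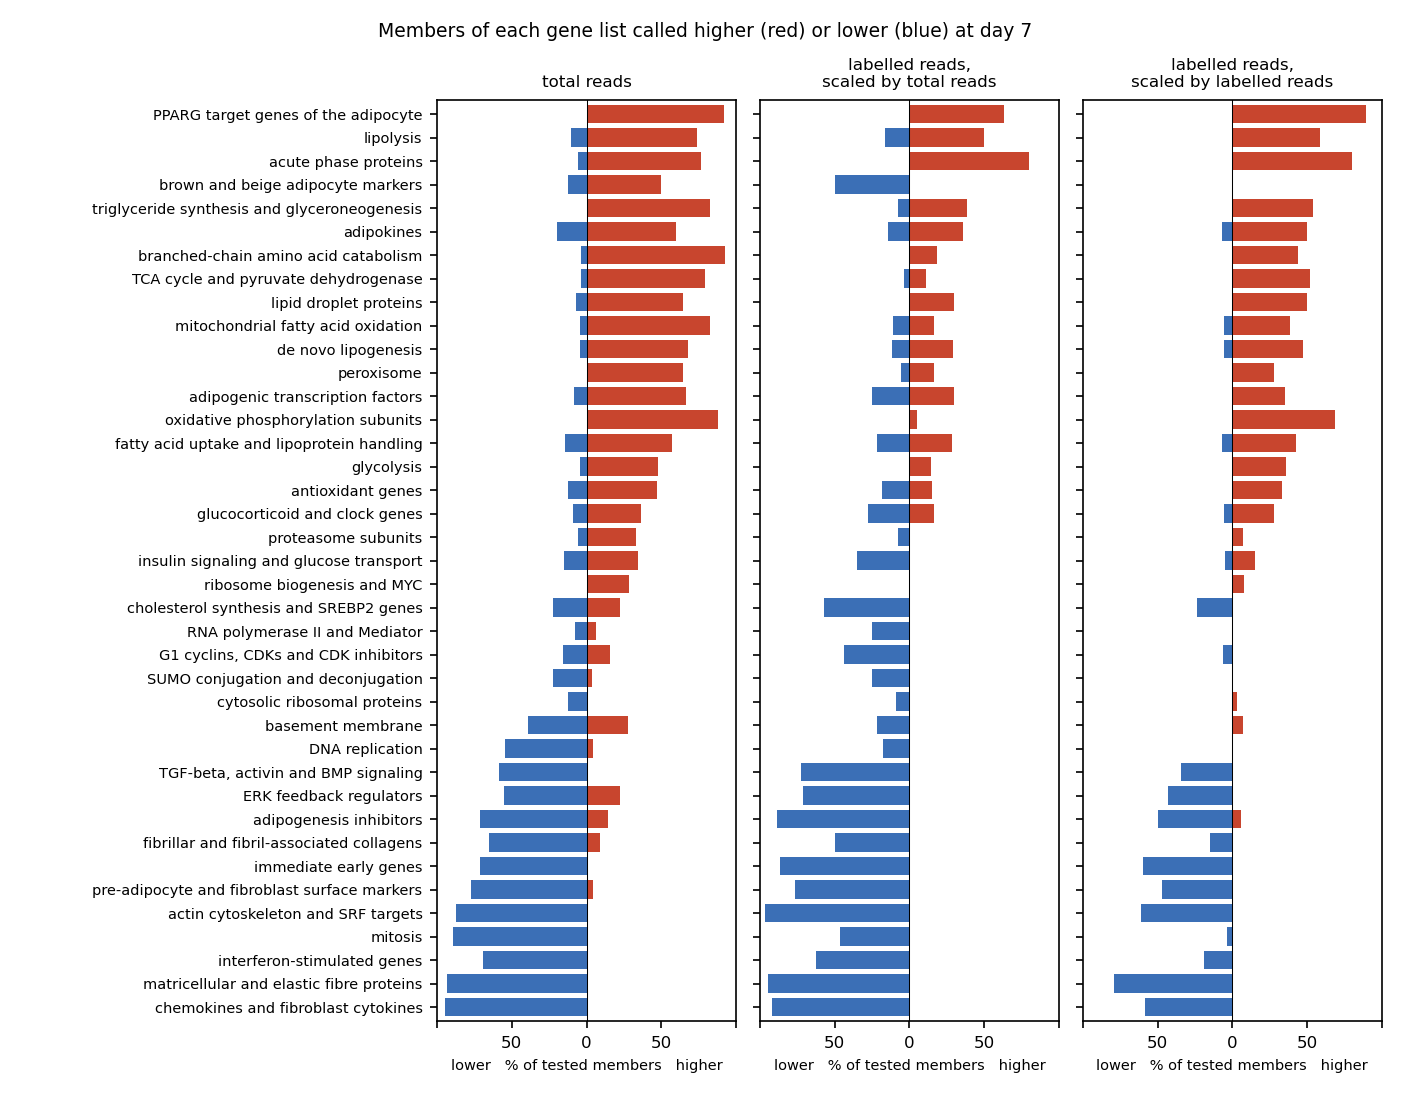
Percent of the tested members of 39 gene lists called higher (red, to the right) or lower (blue, to the left) at day 7, in total reads, in labelled reads scaled by total reads and in labelled reads scaled by labelled reads; lists are ordered by their median log2 fold change in total reads. Metabolic lists fill the right side in total reads and matrix, actin, chemokine and mitosis lists the left, and for oxidative phosphorylation 67 of 76 members rose in total reads against 3 and 40 of 58 under the labelled scalings.

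The genes that fell furthest in total reads were *Timp3*, *Sfrp2*, *Cxcl5*, *Ctgf*, *Ifit1*, *Ccl8*, *Ptgs2* and *P4ha3*. *Timp3*, an inhibitor of matrix metalloproteinases (NM_011595.2, chromosome 10, 86345903 to 86349505), had 3664, 3748 and 3649 normalized total reads at day −2 and 12.4, 11.5 and 17.1 at day 7 (log2 fold change -7.89, standard error 0.25, adjusted p = 8.96e-12, edgeR), with a labelled ratio of day −2 over day 7 of 411 (73.5 to 16274) against 1 count at day 7. *Sfrp2*, a secreted WNT modulator, had 969.5, 1373 and 1036 normalized total reads at day −2 and 7.90, 1.04 and 3.43 at day 7. *Ptgs2* (COX-2), the inducible prostaglandin synthase, went from 1938, 3907 and 1519 to 18.1, 9.39 and 22.8 total and from 497, 953 and 358 to 1.13, 2.09 and 0 labelled reads, a labelled ratio of day −2 over day 7 of 543 (186 to 2637) against 3 counts at day 7.

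Most markers of the fibroblast fell too. Of 22 pre-adipocyte and fibroblast markers, most of them of the cell surface, 17 fell and 1 rose in total reads (median -2.21). In labelled reads 13 of 17 fell and 0 rose, or 8 and 0 against the labelled pool. *Pdgfrb* and *Pdgfra*, the PDGF receptors of mesenchymal precursors, fell, with 3041, 2706 and 2971 normalized total reads at day −2 and 115, 107 and 111 at day 7 for *Pdgfrb* and 2882, 2708 and 2728 at day −2 and 441, 445 and 491 at day 7 for *Pdgfra*. *Thy1* (CD90) fell from 5919, 4592 and 5778 to 671, 689 and 548, and *S100a4*, the fibroblast calcium-binding protein, from 35498, 25764 and 30497 to 1159, 1854 and 1427. *Vim* (vimentin) had 80888, 96871 and 82070 normalized total reads at day −2 and 28078, 20880 and 30079 at day 7 (log2 fold change -1.72, standard error 0.22, adjusted p = 9.30e-06, edgeR) and 1842, 1607 and 1646 normalized labelled reads at day −2 and 169, 129 and 235 at day 7. *Mcam* (CD146) rose against the trend, from 22.9, 9.84 and 7.10 to 807, 447 and 630.5 (log2 fold change 5.36, standard error 0.39, adjusted p = 1.61e-08, edgeR).

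Of 23 fibrillar collagen genes and their modifying enzymes 15 fell and 2 rose in total reads (median -1.82), and in labelled reads 10 of 20 fell, or 3 against the labelled pool. *Col1a1* and *Col1a2*, the chains of type I collagen, had 140890, 146590 and 166260 normalized total reads at day −2 and 12739, 8442 and 14438 at day 7 for *Col1a1* and 275000, 205810 and 268270 at day −2 and 26780, 12548 and 25692 at day 7 for *Col1a2*. Both fell (log2 fold changes of -3.67 and -3.53), and B was the lowest library of both at day 7. *Col3a1* fell (log2 fold change -2.50, standard error 0.20, adjusted p = 8.53e-08, edgeR), from 95857, 91006 and 102330 to 19676, 12693 and 18807, and its labelled reads were 12079, 6798 and 11598 at day −2 and 2398, 975 and 2106 at day 7. *Col6a3*, of type VI collagen, overlapped between the days, with 19230, 24236 and 20824 at day −2 and 33323, 22519 and 31880 at day 7. The hydroxylases *Plod1* and *P4ha2* rose (1.18 and 0.99), whereas *P4ha3* fell from 679, 608 and 718 to 3.39, 7.30 and 0.

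Basement membrane genes, the matrix that each adipocyte keeps around itself, split instead. Of 18 tested 5 rose and 7 fell (median -0.71), where 18.9% and 19.4% of all tested genes did. Of the 12 calls of the list 5 were left without A and 7 without C. *Col4a1* and *Col4a2*, the chains of type IV collagen, rose (23977, 20903 and 25649 at day −2 and 40930, 41193 and 38969 at day 7; log2 fold change 0.78, standard error 0.15, adjusted p = 5.61e-04, edgeR for *Col4a1*, and 0.84 for *Col4a2*), as did *Col15a1* and *Col18a1* (1.65 and 0.94). *Sparc*, which binds collagens, fell from 79207, 71657 and 88425 to 37038, 41785 and 38504. Without A neither type IV collagen gene was called (adjusted p = 0.0479 and 0.0712, edgeR), nor without C (0.0127 and 0.0198). In labelled reads none of the 14 tested rose and 3 fell, or 1 without A, where 1.99% and 28.1% of all tested genes rose and fell. Against the labelled pool 1, *Col4a2*, rose (1.23) and 0 fell.

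Matricellular and elastic fibre genes had the most one-sided fall of the matrix lists, 27 of 29 lower and 0 higher (median -3.72), with 18 of 19 lower in labelled reads and 15 of 19 against the labelled pool. *Fn1* (fibronectin) had 29716, 49010 and 32609 normalized total reads at day −2 and 1990.5, 2000.4 and 2121 at day 7 (log2 fold change -4.19, standard error 0.29, adjusted p = 1.53e-08, edgeR) and 599.7, 771 and 524 normalized labelled reads at day −2 and 14.7, 11.5 and 17.1 at day 7 (log2 fold change -5.28, standard error 0.43, adjusted p = 2.76e-15, edgeR). *Thbs1* (thrombospondin 1) fell from 12697, 7931 and 11825 to 214, 159 and 316 total and from 3759, 2171 and 3444 to 34.98, 34.4 and 46.8 labelled reads. *Ctgf*, a matricellular protein of fibrosis, went from 3687, 2886 and 2403 to 14.7, 2.09 and 31.98 total reads, with B lowest at day 7. *Postn*, *Lox* and *Fbln2* fell (log2 fold changes of -3.95, -2.54 and -3.58). *Bgn* (biglycan), a proteoglycan, fell as well (-1.85).

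Actin cytoskeleton genes and targets of serum response factor (SRF) fell in 28 of 32 cases in total reads and rose in 0 (median -2.25). In labelled reads 30 of 31 fell (median -3.26), and 19 of 31 against the labelled pool. *Acta2*, smooth muscle actin and a mark of contractile fibroblasts (NM_007392.3, chromosome 19, 34240336 to 34241666), had 57586, 31267 and 63410 normalized total reads at day −2 and 739, 730.1 and 1118 at day 7 (log2 fold change -5.88, standard error 0.38, adjusted p = 7.43e-09, edgeR) and 5807, 2350.2 and 5771 normalized labelled reads at day −2 and 44.01, 20.9 and 78.8 at day 7 (log2 fold change -6.55, standard error 0.47, adjusted p = 9.14e-12, edgeR). *Myl9*, the regulatory myosin light chain, fell from 2464, 1628 and 2309.9 to 19.2, 31.3 and 25.1, *Cnn2* (calponin 2) from 6998, 6939.8 and 7338 to 269.7, 383 and 393 and *Actn1* (alpha-actinin) from 15959, 19378 and 16578 to 2612, 1723 and 2952. *Tmsb4x*, which binds monomeric actin, had 20714, 32266 and 14803 normalized total reads at day −2 and 4352, 3199.9 and 3919.9 at day 7. *Actb* was not called in total reads (94752, 60252 and 106110 at day −2 and 48200, 50792 and 53607 at day 7; adjusted p = 0.0132, edgeR), but its labelled reads fell from 5646, 2085 and 5432 to 726, 649.8 and 871 under both scalings. *Srf* itself fell, from 3832, 1978 and 2904 to 1076, 978 and 899 total and 551, 259 and 393 to 53.03, 37.5 and 29.7 labelled reads.

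SRF binds the CArG box, and the 300-base promoters of RefSeq (250 bases before to 50 after a start site, build GRCm38.p6) were searched for it on both strands. It was found in 5 of 28 promoters of this list (17.9%), against 1.58% of 10380 promoters of tested genes. A match is shown for each of the 5. These genes fell in total and in labelled reads, as did 28 of 32 and 30 of 31 tested members of the list, so the fall does not set them apart. Each line gives 30 bases in the direction of the gene, with the match in capitals.
Actg1, chr11:120348566-120348595, minus strand: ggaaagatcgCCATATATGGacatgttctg
Cnn2, chr10:79988534-79988563, plus strand: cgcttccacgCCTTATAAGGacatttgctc
Myl9, chr2:156775293-156775322, plus strand: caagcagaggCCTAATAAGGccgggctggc
Srf, chr17:46556225-46556254, minus strand: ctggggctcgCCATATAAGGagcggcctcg
Vcl, chr14:20929161-20929190, plus strand: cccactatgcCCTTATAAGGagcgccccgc
*Actg1* (cytoplasmic actin) and *Vcl* (vinculin), which anchors actin at adhesions, fell (log2 fold changes of -2.64 and -1.31 in total and -3.70 and -1.61 in labelled reads). Of these 5 genes *Vcl* alone was not called against the labelled pool (-0.20, adjusted p = 0.672, edgeR). The matches describe these letters and were not tested for binding.

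Immediate early genes, which serum and growth factors switch on within minutes, fell in 27 of 38 cases in total reads and rose in 0 (median -1.92). In labelled reads 32 of 37 fell, and 22 of 37 against the labelled pool. *Fos* had 2849.7, 4193 and 3684 normalized total reads at day −2 and 234, 232 and 314 at day 7 (log2 fold change -3.77, standard error 0.27, adjusted p = 1.97e-08, edgeR) and 697, 969 and 887 normalized labelled reads at day −2 and 40.6, 28.2 and 38.8 at day 7. *Egr1*, *Junb* and *Klf6* fell (log2 fold changes of -2.91, -2.72 and -1.98 in total and -3.79, -3.56 and -2.98 in labelled reads). *Ier2* and *Zfp36l1* fell from 5887, 7442 and 8525 to 1470.3, 1806 and 1698 and from 9384, 10166 and 10933 to 2568, 2331 and 2524. *Myc* was not called in either reading, and had 305, 686 and 288 at day −2 and 381, 61.5 and 284 at day 7 total reads, with B highest at day −2 and lowest at day 7 (-0.81, adjusted p = 0.185, edgeR). *Atf3*, a stress-induced factor, overlapped in total reads (297, 199 and 348 at day −2 and 276, 247 and 479 at day 7) and fell in labelled reads (69.5, 53.7 and 88.8 at day −2 and 14.7, 13.6 and 20.6 at day 7), though not against the labelled pool (-0.65). In promoters of these genes the CArG box was found in 3 of 31 (9.68%).

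Most of the called feedback regulators of ERK fell. Of 18 tested 10 fell and 4 rose in total reads, where 19.4% and 18.9% of all tested genes did. *Dusp6*, the cytosolic ERK phosphatase, had 1855, 2807 and 1788 normalized total reads at day −2 and 386, 391 and 375 at day 7 (log2 fold change -2.48, standard error 0.24, adjusted p = 4.63e-07, edgeR), and *Spry2*, *Phlda1* and *Dusp1* fell (log2 fold changes of -2.66, -2.19 and -1.43). *Dusp4*, *Dusp14*, *Dusp16* and *Spry4* rose (3.13, 2.18, 2.07 and 0.78), and *Dusp4*, a nuclear ERK phosphatase, had 50.7, 30.4 and 31.1 normalized total reads at day −2 and 349.8, 387 and 294 at day 7. None of the 14 members tested in labelled reads rose and 10 fell, or 6 against the labelled pool. *Errfi1*, the inhibitor of the EGF receptor, was not called in total reads (2642, 2279 and 2035 at day −2 and 2502, 2784 and 2670.4 at day 7) while its labelled reads fell from 696, 546 and 532 to 129, 166 and 202.

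Chemokines and fibroblast cytokines fell in 19 of 20 cases (median -3.73), with 11 of 12 lower in labelled reads and 7 of 12 against the labelled pool. *Ccl2* and *Ccl7*, which draw monocytes, fell. *Ccl2* had 3212, 4974 and 2516 normalized total reads at day −2 and 30.5, 49.02 and 29.7 at day 7 (log2 fold change -6.53, standard error 0.37, adjusted p = 1.83e-09, edgeR), and *Ccl7* went from 3917, 3799 and 2978 to 75.6, 41.7 and 65.1. Labelled reads of *Ccl2* went from 824, 983 and 583 to 4.51, 0 and 4.57 and of *Ccl7* from 1019, 732 and 765 to 5.64, 4.17 and 7.995. *Cxcl5* had 1369.6, 1267 and 1752 normalized total reads at day −2 and 9.03, 2.09 and 9.14 at day 7, *Ccl8* 534, 453 and 472 normalized total reads at day −2 and 2.26, 1.04 and 1.14 at day 7, and *Csf1*, the macrophage growth factor, 5207, 4281 and 5082 normalized total reads at day −2 and 289, 195 and 324 at day 7. Of the 9 leukocyte markers, whose sums are given above, 4 were at 0 in all libraries and 2 of 4 tested fell.

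Of 36 genes of TGF-beta, activin and BMP signaling 21 fell and 0 rose in total reads (median -1.14), and 21 of 29 fell in labelled reads, or 10 of 29 against the labelled pool. Without A 13 fell in total and 13 in labelled reads. *Fstl1*, a secreted follistatin-like protein, had 66680, 42925 and 77299 normalized total reads at day −2 and 3303, 3071 and 3544 at day 7 (log2 fold change -4.24, standard error 0.29, adjusted p = 1.09e-08, edgeR) and 923, 464 and 1046 normalized labelled reads at day −2 and 42.9, 19.8 and 59.4 at day 7. *Id1* fell (-0.74 in total and -2.26 in labelled reads) and was not called against the labelled pool. *Tgfbr3*, betaglycan, overlapped in total reads (2378, 1879.8 and 2596 at day −2 and 2109, 1844 and 1972 at day 7).

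Interferon-stimulated genes were expressed in the pre-adipocytes and fell in 18 of 26 cases, with 0 that rose (median -2.39). In labelled reads 10 of 16 fell, or 6 without C, and 3 against the labelled pool. *Ifit1*, which binds uncapped viral RNA (NM_008331.3, chromosome 19, 34648858 to 34650009), had 1642, 2451 and 3523 normalized total reads at day −2 and 13.5, 21.9 and 11.4 at day 7 (log2 fold change -7.17, standard error 0.37, adjusted p = 5.96e-10, edgeR) and 248, 211 and 678 normalized labelled reads at day −2 and 3.39, 0 and 2.28 at day 7. *Isg15*, a ubiquitin-like modifier, had 486, 1139 and 683 normalized total reads at day −2 and 16.9, 12.5 and 20.6 at day 7. *B2m*, the light chain of class I molecules, fell from 51774, 43931 and 63994 to 24302, 16216 and 27536, while *H2-K1* and *H2-D1*, heavy chains whose reads can be shared between close paralogs, were not called (0.52 and -0.36). *Psmb8* and *Psmb9*, subunits of the immunoproteasome, fell (log2 fold changes of -1.49 and -1.65), whereas the other called proteasome subunits rose, 12 of 36 tested. Of these 14 calls 2 were left without A and 4 without C, and with the letter as a block 25 were called. In labelled reads 0 of 27 rose and 2 fell, where 1.99% and 28.1% of all tested genes did. Against the labelled pool 2 of the 27 rose and 0 fell.
The interferon-stimulated response element, searched as GAAANNGAAA on both strands, was in 11 of 21 promoters of this list (52.4%), against 3.66% of 10380. The windows of *Ifit1* and *Isg15* are shown as 2 examples, with the match in capitals (TTTCNNTTTC is the same motif on the other strand). *B2m* holds a match too, at -139 bases, which is not shown.
Ifit1, chr19:34640775-34640804, plus strand: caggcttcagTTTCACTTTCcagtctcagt
Ifit1, chr19:34640794-34640823, plus strand: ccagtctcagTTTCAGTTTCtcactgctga
Isg15, chr4:156200865-156200894, minus strand: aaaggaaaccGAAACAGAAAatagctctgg
Both *Ifit1* matches lie upstream of the start site, at -104 and -85 bases, and that of *Isg15* at -66. *Isg15* holds further matches at -72 and -78.

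Genes of mitosis fell in 42 of 47 cases in total reads and rose in 0 (median -2.33). In labelled reads 14 of 30 fell, where 28.1% of all tested genes did, or 1 without A and 4 without C. Against the labelled pool 1 of 30 fell. *Cdk1*, the mitotic kinase, had 1442, 1021 and 1461 normalized total reads at day −2 and 556, 297 and 683 at day 7 (log2 fold change -1.35, standard error 0.28, adjusted p = 9.26e-04, edgeR) and 70.4, 35.8 and 63.1 normalized labelled reads at day −2 and 3.39, 4.17 and 15.99 at day 7. *Birc5* (survivin) fell from 1032, 1068 and 893 to 258, 180.4 and 196 and *Cdc20*, the activator of the anaphase-promoting complex, from 812, 943 and 1116 to 151, 104 and 259. *Bub3* of the spindle checkpoint overlapped (1508, 855 and 1692 at day −2 and 1734, 1593 and 1729 at day 7), and *Ncapd2*, a condensin subunit, was not called (-1.07, adjusted p = 0.0185, edgeR). The labelled counts of mitotic genes were small, with 537.5 to 695.4 summed over the list at day −2 and 81.35 to 143.9 at day 7.

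Of 44 DNA replication genes 24 fell and 2 rose in total reads (median -1.12), where 19.4% and 18.9% of all tested genes did. Without A 12 of the list were called. *Mcm6* and *Mcm2*, subunits of the replicative helicase, fell from 700.4, 657 and 831 to 128, 141 and 247 and from 1243, 962 and 1628 to 471, 278 and 667, and *Orc1* of the origin recognition complex from 51.5, 93.9 and 60.4 to 21.4, 4.17 and 18.3. *Mcm7* overlapped between the days (722, 588 and 973 at day −2 and 644, 581 and 784 at day 7). The 2 that rose, *Gins4* and *Gins1*, both belong to the GINS complex of the replication fork (0.90 and 0.85), with 693, 525 and 631 normalized total reads at day −2 and 941, 1401 and 1106 at day 7 for *Gins4*. Without A *Gins1* was not called (adjusted p = 0.121, edgeR), and without C neither was (0.0176 for *Gins4*). In labelled reads 4 of 23 fell, a smaller share than the 28.1% over all tested genes, or 0 without A and 1 without C. Against the labelled pool 0 were called in either direction, and the median was 0.090.

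The cell cycle homology region, searched as TTTGAA on both strands, was found in 30 of 40 promoters of the mitosis list (75%), against 14.4% of 10380 promoters. An E2F site, searched as TTTGGCGC, TTTCGCGC, TTCCCGCC or TTTCCCGC, which overlap in part, was found in 19 of 35 promoters of the replication list (54.3%), against 7.35%. A window is shown for 2 genes of each list, with 1 match in capitals (*Cdk1* and *Mcm6* hold further matches that are not shown).
Cdk1, chr10:69352966-69352995, minus strand: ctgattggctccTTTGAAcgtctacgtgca
Cdc20, chr4:118437344-118437373, minus strand: agacagttgggtTTTGAAggagccaatgaa
Mcm6, chr1:128359734-128359763, minus strand: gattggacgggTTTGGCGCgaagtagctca
Orc1, chr4:108579416-108579445, plus strand: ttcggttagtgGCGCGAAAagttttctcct
The first 2 are of mitosis genes, the last 2 of replication genes, and all 4 genes fell in total reads. *Mcm7*, *Bub3* and *Ncapd2*, which were not called, also hold a match in their promoters.

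Of 25 G1 regulators 4 rose and 4 fell (median -0.19), no larger a share than over all tested genes (18.9% and 19.4%). Of the 8 calls 2 were left without A and 4 without C. *Ccnd1* (cyclin D1) had 11755, 12370 and 11748 normalized total reads at day −2 and 1620.4, 1658 and 1356 at day 7 (log2 fold change -2.95, standard error 0.16, adjusted p = 1.57e-09, edgeR), while *Ccnd2* (cyclin D2) had 52584, 49722 and 49329 normalized total reads at day −2 and 57896, 53153 and 56107 at day 7 and was not called (0.14, adjusted p = 0.496, edgeR). *Cdk4*, their partner, fell (-1.12). *Cdkn1a* (p21), the inhibitor of cyclin-dependent kinases, rose from 12497, 6816 and 14083 to 24776, 19501 and 25920 (log2 fold change 1.07, standard error 0.29, adjusted p = 0.00643, edgeR), but not without A or C (adjusted p = 0.0643 and 0.0266, edgeR), and *Cdkn2b* (p15) and *Cdkn2a* fell (-1.53 and -1.43). B carried the highest *Cdkn2a* value of day −2, at 31580.

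Many cholesterol synthesis genes fell in labelled reads. Of 27 tested 6 rose and 6 fell in total reads (median 0.054), shares near the 18.9% and 19.4% of all tested genes. Of the 12 calls of the list 6 were left without A and 7 without C. In labelled reads 0 of 21 rose and 12 fell (median -1.97), where 1.99% and 28.1% of all tested genes did (median -1.28). Against the labelled pool 5 fell and 0 rose, where 5.32% and 6.42% of all tested genes did. The labelled share fell in 13 of 21, against 23.7% of all tested genes. *Hmgcs1*, which makes HMG-CoA (NM_001291439.1, chromosome 13, 119706479 to 119708260), had 7503, 7052 and 6235 normalized total reads at day −2 and 6014, 8205 and 5865 at day 7, and the days overlapped (log2 fold change -0.050, standard error 0.18, adjusted p = 0.855, edgeR). Its labelled reads were 704, 482 and 476 at day −2 and 51.9, 64.7 and 45.7 at day 7 (log2 fold change -3.31, standard error 0.37, adjusted p = 1.83e-10, edgeR), and its labelled share was 9.38, 6.83 and 7.63% at day −2 and 0.863, 0.788 and 0.779% at day 7. *Msmo1*, a sterol oxidase of the later steps, showed the same, with 7173, 6593 and 6114 at day −2 and 5286, 6657 and 5560 at day 7 total and 618, 336 and 505 at day −2 and 32.7, 64.7 and 36.5 at day 7 labelled reads. *Stard4*, a sterol carrier, fell in both (-1.81 and -4.28), *Cyp51* rose in total reads (2.15) with overlapping labelled reads (117, 57.2 and 45.3 at day −2 and 48.5, 67.8 and 50.3 at day 7), and *Srebf2*, the factor that drives this pathway, fell in total (-1.25) and in labelled reads (-1.91) but not against the labelled pool (-0.62).
The sterol regulatory element of the form TCACNCCAC was found in 1 of 20 promoters of this list (5%), against 1.37% of 10380, and that promoter is of *Hmgcs1*, shown with the match in capitals.
Hmgcs1, chr13:119690203-119690232, plus strand: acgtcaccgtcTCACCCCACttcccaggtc

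Most genes of the machinery for making ribosomes and RNA were not called. This also holds for all tested genes, of which 18.9% rose and 19.4% fell in total reads. Of 72 cytosolic ribosomal protein genes 9 fell and 0 rose in total reads (median -0.64), and 1 fell without A, 1 without C, 26 with the letter as a block and 17 with all 24 libraries in the fit. Many have processed copies that share their reads, and B was the highest library at both days in their summed level, at 249500 and 151800. Ribosome biogenesis genes rose in 10 of 35 cases and fell in 0 (median 0.46), a larger share of rises than over all tested genes. Without A 4 of them rose, and none of the 25 tested was called in labelled reads. Of 50 subunits of RNA polymerase II and Mediator 3 rose and 4 fell (median -0.021), or 3 were called without A, and *Polr2a*, the largest subunit of the polymerase, had 1856, 1949.6 and 2269 normalized total reads at day −2 and 1929.6, 2207 and 1746 at day 7 (log2 fold change -0.046, standard error 0.15, adjusted p = 0.837, edgeR). Its labelled reads fell with the pool, 64.6, 34.9 and 71.9 at day −2 and 7.90, 20.9 and 27.4 at day 7, and were not called against it (-0.13). For the SUMO pathway, 1 of 27 genes rose and 6 fell (median -0.28), against 18.9% and 19.4% of all genes. Without A 3 were called, without C 2, and with the letter as a block 16, 6 higher and 10 lower. *Sae1*, a subunit of the activating enzyme that ML-792 blocks, fell from 3009, 2121 and 2699.8 to 1501, 1155 and 1117 (log2 fold change -1.05, standard error 0.20, adjusted p = 4.34e-04, edgeR). *Sumo3* was not called (5240.3, 3146 and 5511 at day −2 and 7866, 6388 and 7344 at day 7).

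The labelled share, the percent of the reads of a gene that were labelled, compares both readings within a gene. It fell with the pool in most genes, and the median over 2918 genes with a mean of at least 1000 total reads was 1.92% ± 0.348 at day −2 and 0.736% ± 0.0529 at day 7 (SD, n = 3). It was called lower in 1522 of 6434 genes (23.7%) and higher in 5 (0.0777%). Set against the share of the whole library, 127 genes were called (1.97%), with 93 higher (1.45%) and 34 lower (0.528%).

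*Orm3*, an orosomucoid of the acute phase, had the largest rise. It had 30.3, 24.1 and 55.95 normalized total reads at day −2 and 1960, 1111 and 1943 at day 7 (log2 fold change 5.43, standard error 0.42, adjusted p = 4.52e-08, edgeR) and 2.45, 0 and 0 normalized labelled reads at day −2 and 409.6, 176 and 460.3 at day 7, and at day 7 20.9, 15.9 and 23.7% of its reads were labelled, where at day −2 3 labelled counts were found in all. *Mad2l2* rose in labelled share as well, with 2 labelled counts in all at day −2 and 27.1, 21.9 and 23.98 normalized labelled reads at day 7, a pooled ratio of 42.05 (11.2 to 354). Its total reads were 321, 185 and 363 at day −2 and 402, 510 and 483 at day 7 and were not called. *Mgp*, matrix Gla protein and an inhibitor of calcification, fell in total reads from 4292, 4134 and 3331 to 172, 266 and 212 while its labelled share rose from 9.80, 7.51 and 10.9% to 17.8, 9.80 and 25.3% (log2 fold change 0.88, standard error 0.25, adjusted p = 0.00404, edgeR), a call that was lost without A and without C (adjusted p = 0.0338 and 0.152, edgeR).

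Of the 93 genes called higher against the library share, 80 had a mean share at day 7 within 1.5-fold of that at day −2. In *Nme1*, a nucleoside diphosphate kinase, the share was 23.7, 17.3 and 24.02% at day −2 and 25.4, 15.5 and 25.8% at day 7 (relative log2 change 1.45, standard error 0.17, adjusted p = 6.06e-10, edgeR). *Col3a1* had 12.6, 7.47 and 11.3% at day −2 and 12.2, 7.68 and 11.2% at day 7, *Suclg1* 13.1, 6.89 and 11.8% at day −2 and 10.7, 14.01 and 9.15% at day 7 and *Ndufs6* 12.7, 13.3 and 14.1% at day −2 and 13.4, 10.05 and 13.5% at day 7. *Vcl* stood at 37.5% and 30.5%, *Map3k11*, a kinase of the JNK pathway, at 43.4% and 36.2%, and *Sox9*, the factor of cartilage, at 8.48% and 8.04%. No library without 4-thiouridine was used here, and the 1st percentile of the share over entries with at least 1000 reads was 0.0561% to 0.322%. Whether conversions from other sources than 4-thiouridine enter these shares was not tested.

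Some of the genes whose share fell most had lost their labelled reads. *2010111I01Rik*, *Gpsm2*, which orients the spindle, and *Ifi202b*, an interferon-inducible gene, had 0 labelled reads in every library of day 7. At day −2 *Gpsm2* had 46.6, 59.02 and 37.3 and *Ifi202b* 55.6, 47.4 and 53.3 normalized labelled reads, so that they were at least 14.4-fold and 15.7-fold lower. None of these genes was among those called below the share of the library, unlike *Syn2*, *Itga6* and *Noct*. Their total reads are not given here. *Syn2*, a synapsin, rose in total reads from 31.1, 27.7 and 35.5 to 3138, 2726 and 3219.7, and its share went from 13.6% to 0.673%. *Itga6*, the integrin subunit that binds laminin, had 479, 512 and 428 normalized total reads at day −2 and 6700.5, 5555 and 6543 at day 7 (log2 fold change 3.72, standard error 0.18, adjusted p = 3.00e-10, edgeR), with overlapping labelled reads, 44.2, 33.1 and 27.5 at day −2 and 28.2, 16.7 and 59.4 at day 7. *Noct*, a phosphatase of the circadian clock, rose from 289.6, 204 and 159 to 1157, 1316 and 1004 total reads while its share fell from 25.8% to 2.07%.

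The 32 genes higher in total and lower in labelled reads had log2 fold changes of 0.55 to 1.75 in total reads. All 32 were also called for a lower labelled share, but 0 of 32 were called in labelled reads against the labelled pool, where 9 lay above 0. *Cav1* and *Cav2*, the coat proteins of caveolae, were 2 of them. *Cav1* (NM_007616.4, chromosome 6, 17339455 to 17341328) had 5970.1, 7680.2 and 5762 normalized total reads at day −2 and 16704, 17319 and 17888 at day 7 (log2 fold change 1.42, standard error 0.19, adjusted p = 1.63e-05, edgeR) and 689, 533 and 569 normalized labelled reads at day −2 and 157, 141 and 139 at day 7 (log2 fold change -2.02, standard error 0.34, adjusted p = 3.06e-06, edgeR), and a labelled share of 11.5, 6.94 and 9.88% at day −2 and 0.939, 0.813 and 0.779% at day 7 (log2 fold change -3.45, standard error 0.26, adjusted p = 6.35e-21, edgeR). *Cav2* had 1285, 2514 and 1105 at day −2 and 5244, 6046 and 5236 at day 7 total and 115, 117 and 71.05 at day −2 and 33.9, 36.5 and 27.4 at day 7 labelled reads. For both genes the days did not overlap in either reading, and the directions were opposite. *Insig1*, which holds SREBP in the endoplasmic reticulum, was another, with 488, 529 and 530.2 at day −2 and 982, 911 and 870.3 at day 7 total and 104, 109 and 133 at day −2 and 18.1, 20.9 and 19.4 at day 7 labelled reads. The total call of *Insig1* was lost without A (adjusted p = 0.0572, edgeR) and without C (0.0288). Relative to the library the shares of *Cav1*, *Cav2* and *Insig1* also fell (-2.02, -1.93 and -1.85).

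**Figure D4:**
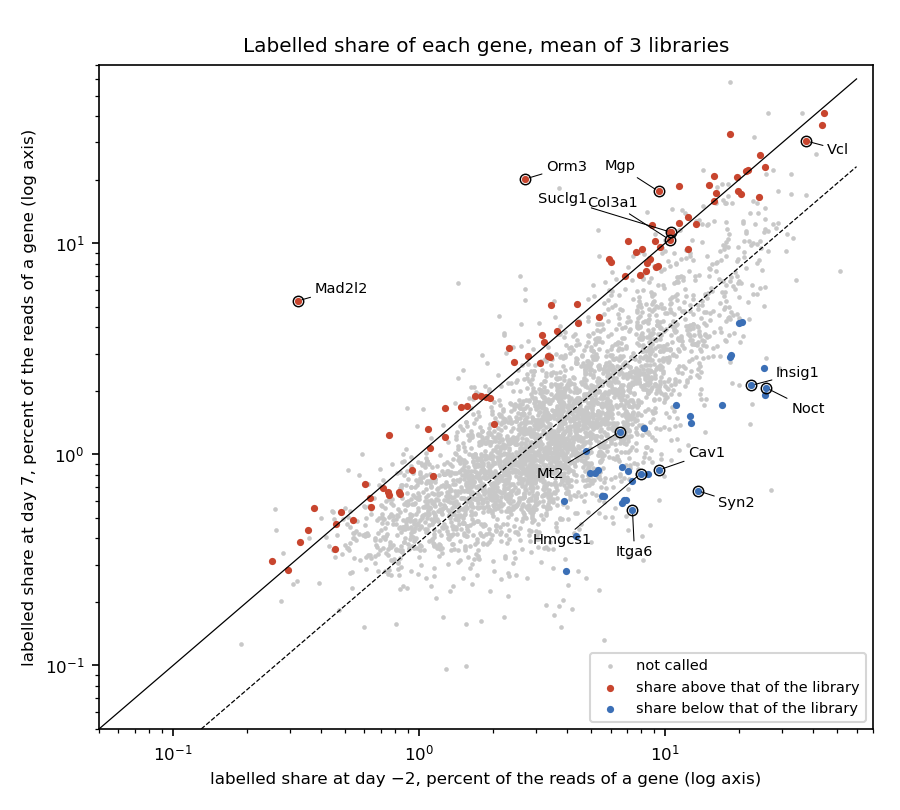
Mean labelled share of each gene at day 7 against day −2 in percent, both axes logarithmic, for genes with at least 20 normalized labelled reads at a day; the solid line marks an equal share and the dashed line the ratio of the medians, 0.736% over 1.92%. Genes called above the share of the library (red) lie near or over the solid line, with 38 of 93 somewhat under it, and those called below it (blue) lie under the dashed line, with *Orm3* and *Mad2l2* far above and *Syn2*, *Itga6* and *Cav1* far below.

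The shares of single genes lay far apart at both days. In the early response gene *Junb* the share was 17.99, 17.2 and 17.4% at day −2 and 9.46, 9.14 and 10.5% at day 7, and in *Id3* it was 20.3, 21.5 and 21.2% at day −2 and 7.56, 10.3 and 9.33% at day 7. Shares of fat storage genes were lower, 1.70, 0.708 and 1.41% at day −2 and 0.545, 0.530 and 0.612% at day 7 in *Scd1* and 2.18, 1.42 and 1.92% at day −2 and 0.527, 0.517 and 0.630% at day 7 in *Lpl*. *Fasn* had 4.18, 1.74 and 3.30% at day −2 and 0.501, 0.288 and 0.503% at day 7, with B lowest at both days. In *Fabp4* the share was 0.543, 1.39 and 0.871% at day −2 and 0.470, 0.460 and 0.613% at day 7 and overlapped, and only 4.91, 18.8 and 7.10 normalized labelled reads stood behind it at day −2.

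**Figure D5:**
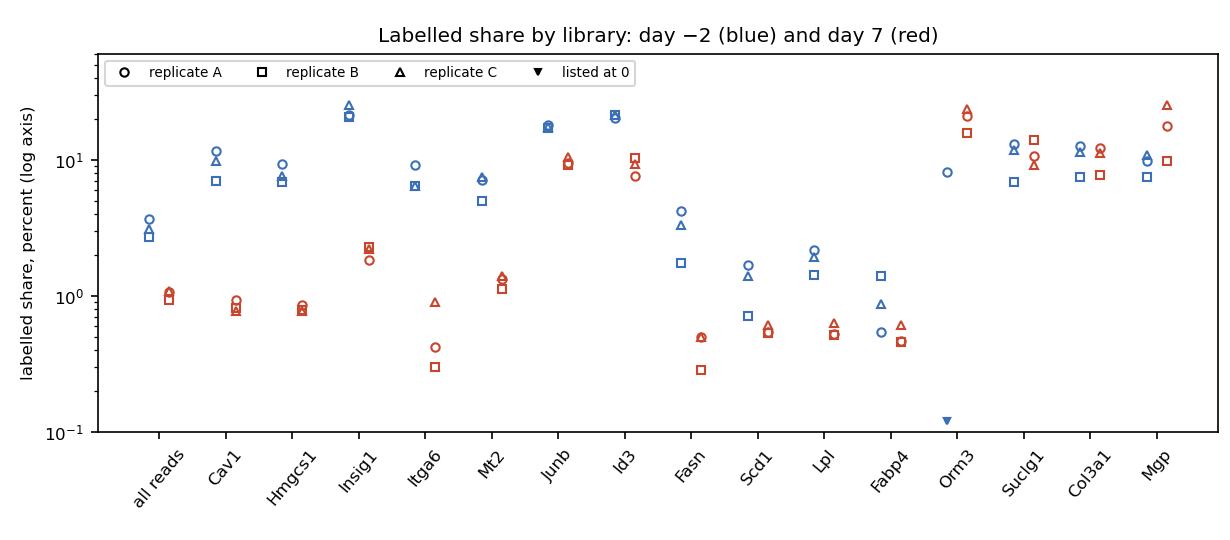
Labelled share in percent (log axis) of all reads and of 15 genes in each of the 6 libraries, day −2 in blue and day 7 in red, with the replicate given by the symbol; a filled triangle marks a library listed at 0, as B and C of *Orm3* at day −2. *Cav1*, *Hmgcs1*, *Insig1* and *Itga6* drop further than all reads do, *Suclg1* and *Col3a1* overlap between the days, and *Orm3* lies higher at day 7. *Mgp* lies higher at day 7 in A and C, while B of day 7 lies within the range of day −2.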

How the data were processed

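SLAMseq on QuantSeq 3′ libraries was deposited for 24 samples, of which the 6 DMSO libraries of days −2 and 7 were compared. The authors mapped reads to mm10 with SlamDunk, after base calling with bcl2fastq 2.17.1.14, and deposited raw counts per RefSeq 3′UTR for 91830 entries, as total read counts and as counts of reads with at least 1 T-to-C conversion. A further 6 library columns of each table matched no sample and were not used. The depth was 17192037 to 22292366 total and 180072 to 820046 labelled reads a library, and intervals and floors cover counting error only.

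Counts were tested with edgeR 4.0.16 in R 4.3.3 (quasi-likelihood test, TMM factors of the total reads for both readings, 12 DMSO libraries in one fit, minimum count 10, Benjamini-Hochberg over 26563 total and 10589 labelled entries, adjusted p under 0.01). The labelled share was fitted with the total reads of an entry as offset. Of several entries of a gene, the one with most total reads on average was used. The fit was tested on simulated data with known changes, of which it missed most of the smaller ones in total reads and most of either size in labelled reads. Pooled ratios have 95% exact intervals.

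The gene lists and members were chosen with earlier results of these data known. Genes were named as the 8 with the highest and lowest fold change in each reading, the 5 most counted and the opposite members of a list, the extremes of the labelled share, markers, and others chosen after their values were seen. Some genes that the rule names are not reported here. Promoter sequences are from RefSeq (GRCm38.p6). Alternatives were another filter, DESeq2 1.42.0, other library sets, a letter block, scaling by labelled reads, a background share taken off (chosen after seeing the data) and leaving out each replicate.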

Additional observations from a re-analysis of the deposited data

How the results depend on the processing

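The number of genes called depended on 2 of the replicates. Leaving out each replicate in turn gave 2803 to 5470 genes in total reads, 775 to 1867 in labelled reads, 573 to 1423 for the labelled share and 487 to 1156 called the same way in both readings, against 5111, 1933, 1527 and 1132 with all libraries. The lowest counts came without replicate A (2803, 775, 573 and 487) and the next without C (3427, 1029, 714 and 644). Without B, which leaves the same number of libraries, 5470, 1867, 1423 and 1156 genes were called. The difference in the labelled share of a library stayed between -1.92 and -2.33 percentage points. For genes named here 153 values were followed through the alternatives, 32 of them of labelled reads or the labelled share. Not every call given above was checked in this way. Of the calls checked, 33 were lost without A (adjusted p up to 0.145, edgeR) and 28 without C (up to 0.152). Lost under both were those of *Acot2*, *Cdk4*, *Cdkn1a*, *Cdkn2a*, *Col4a1*, *Col4a2*, *Eno3*, *Gins1*, *Grb10*, *Gstm2*, *Id1*, *Insig1*, *Irs1*, *Nqo1*, *Plin3*, *Prkacb*, *Psmb8*, *Sod3* and *Spry4* in total reads, of *Acot2*, *Agpat4*, *Atf3*, *Cebpd* and *Srebf2* in labelled reads and of *Mgp* for the share. Without A alone those of *Cdk1*, *Cdkn2b*, *Col18a1*, *Metrnl*, *Nr3c1*, *P4ha2* and *Psmb9* in total and *Cebpb* in labelled reads were lost, and without C alone those of *Gins4*, *Sae1* and *Srebf2* in total reads. Without B 2 were lost, *Gins1* in total (0.0197) and *Acot2* in labelled reads (0.0236). Counts of called members of the gene lists moved too, by over 1.5 times in 32 of 78 cases without A, in 23 without C and in 4 without B, over 39 lists in both readings, for example from 26 to 12 for DNA replication and from 21 to 13 for TGF-beta signaling in total reads without A. With the labelled counts scaled to the labelled pool, 755 genes were called in labelled reads, 127 for the share and 685 in both readings. Under that scaling the log2 fold change of labelled *Cebpd* turned to 0.054 (adjusted p = 0.938, edgeR) and that of *Klf9* to 1.16, and of the insulin signaling genes 4 were called, 3 higher and 1 lower, against 0 higher and 7 lower. With the letter as a replicate block 6258, 2105, 1600 and 1329 genes were called, and 8 list counts moved. Libraries of the same letter deviated together with r of 0.0425 to 0.0897 in total and 0.0176 to 0.0434 in labelled reads, and each correlated best with its own letter, a hint from the data and not from the design. The other alternatives moved none of the 4 counts by over 1.5 times: DESeq2 called 5802, 2065, 1656 and 1213 genes, no filter on low counts gave 5517, 1735, 1193 and 1124, the 6 libraries alone 5030, 2365, 2008 and 1263, and a background share taken off, which was chosen after seeing the data, gave 1695 labelled, 1231 share and 1024 shared calls. The cause of these shifts was not tested. Day 7 held at most 186237 labelled reads a library, which limits what could be called among weakly labelled genes.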
